A study of Homo sapiens with 6 samples.

Results

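The genes described here are those of the mesenchymal state and of the response to transforming growth factor beta (TGF-beta), in MDA-MB-231 cells given selamectin. They are 42 named genes, taken where a transcript cluster of the array carries that symbol and no other, with the brighter cluster used where a gene has more than 1. Of the 42, 40 were measured, among 18417 named genes tested in all. FOXC1, a forkhead factor, and PTHLH, the parathyroid hormone-like hormone, were not analysed here. The selamectin group was MDA-MB-231 cultures exposed to 1 µM selamectin, an avermectin antiparasitic, over 24 h, and the untreated group was cultures of the same line that the titles call untreated, while the protocol speaks of vehicle. Each group had 3 arrays. MDA-MB-231 is an established line from 1 human triple-negative breast cancer, and it carries no genetic change made for the study. The series title presents avermectins as inhibitors of SIN3, a corepressor scaffold for histone deacetylases, so the comparison asks how these genes stand when that compound is given.

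In an epithelial-to-mesenchymal transition, factors of the ZEB, SNAI and TWIST families repress junction genes such as CDH1, and cells gain vimentin, N-cadherin and matrix proteins. TGF-beta is a known inducer of that change. It is secreted in a latent complex, which latent TGF-beta binding proteins (LTBPs) tie to the matrix. Once freed, it binds the receptors TGFBR2 and TGFBR1, which phosphorylate SMAD2 and SMAD3. These enter the nucleus with SMAD4, where SKI and SKIL hold them back, while SMAD7 and PMEPA1 are feedback inhibitors that the pathway itself induces. In triple-negative breast cancer lines the pathway is studied for its part in invasion.

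Values are log2 array values, and a change is the selamectin mean minus the untreated mean on that scale. The test was limma over all 18417 genes, and a gene passed where its adjusted p was under 0.05. The median change of all genes was 0.04, and array medians lay between 7.47 and 7.51. On selamectin array 3, 29 of the 40 genes had their lowest selamectin value, which was so for 48.1% of all genes. For the 40 genes, calls that turn on that array are given with and without it. Other TGF-beta genes that passed only without it are counted but not named. Of genes that mark the line (VIM, CD44, AXL, CAV1 and 4 more), 8 of 8 lay above the median gene, against 4 of 10 epithelial and luminal genes. Those positions depend on the probes and are only a rough check. Of the 8 line markers 1 passed (12.5%, against 4.69% of all genes). It was CD44, a hyaluronan receptor, with a change of 0.42 (limma adjusted p = 0.020). That call was lost without selamectin array 1, selamectin array 2, untreated array 1 or untreated array 3 (adjusted p up to 0.087). It was also lost with all clusters in the fit (0.065). Detection calls were not used here, so which of the dimmer genes were above background is not known. Of the 40 genes, 33 had a mean over all arrays above the 25th percentile of all genes and 26 above the 50th.

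The ligand gene TGFB2 and 2 of the 4 genes for latent binding proteins fell, the feedback inhibitor PMEPA1 rose, and no transition factor passed. Of the 40 genes, 1 rose and 4 fell, where 2.41% of all genes rose and 2.28% fell (4.69% in either direction). LTBP1, TGFB2 and LTBP3 fell among 14 pathway genes, PMEPA1 rose among 4 response genes, and SPARC fell among 14 mesenchymal and matrix genes. Among 8 transition factors 0 passed in limma, and 0 had an unadjusted p under 0.05, against 19.9% of all genes. The median change was 0.06 for transition factors, -0.18 for pathway genes, 0.08 for response genes and 0.06 for mesenchymal and matrix genes. In a culture measured in bulk, fewer cells of a kind and less RNA per cell cannot be told apart.

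**Figure D1:**
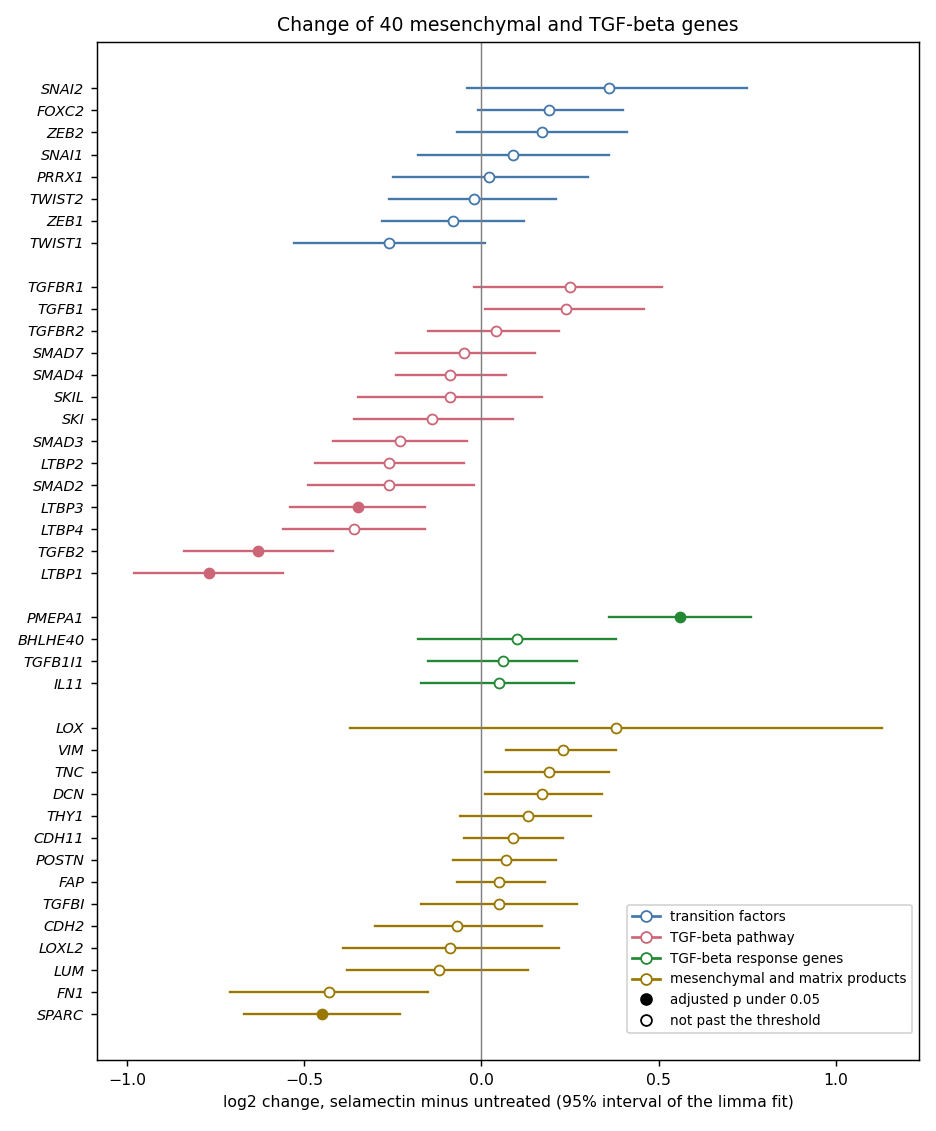
Log2 change (selamectin minus untreated) of each of 40 genes on the horizontal axis, with its 95% interval from the limma fit, in 4 role groups down the page. Filled points passed an adjusted p of 0.05; LTBP1 at -0.77 and TGFB2 at -0.63 lie farthest to the left and PMEPA1 at 0.56 farthest to the right.

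The stretches before the start sites of the 5 genes that passed are shown because these are the members whose difference between treated and untreated cultures passed the test. Each is the 250 bases upstream of 1 RefSeq (GRCh38.p14) start of the gene, read on the gene's strand. Any other start of these genes was not searched. Capitals mark a SMAD box, searched as CAGAC or GTCTG, which are the same letters on opposite strands.
LTBP1, chr2:32946703-32946952, plus strand: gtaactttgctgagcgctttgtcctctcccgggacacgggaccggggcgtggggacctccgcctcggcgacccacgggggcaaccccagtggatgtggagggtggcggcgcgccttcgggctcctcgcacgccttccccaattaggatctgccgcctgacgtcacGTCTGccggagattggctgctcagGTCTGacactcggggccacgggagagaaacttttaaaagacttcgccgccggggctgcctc
TGFB2, chr1:218345086-218345335, plus strand: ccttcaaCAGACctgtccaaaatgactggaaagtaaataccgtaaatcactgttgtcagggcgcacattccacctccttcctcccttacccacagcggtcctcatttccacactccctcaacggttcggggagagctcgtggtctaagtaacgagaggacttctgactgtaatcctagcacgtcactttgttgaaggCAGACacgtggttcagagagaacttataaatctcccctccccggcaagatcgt
LTBP3, chr11:65558360-65558609, minus strand: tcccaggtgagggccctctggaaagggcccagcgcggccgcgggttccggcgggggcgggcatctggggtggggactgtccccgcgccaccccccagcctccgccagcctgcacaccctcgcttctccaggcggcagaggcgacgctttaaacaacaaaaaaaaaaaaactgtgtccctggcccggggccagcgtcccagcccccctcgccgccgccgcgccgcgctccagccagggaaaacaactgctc
PMEPA1, chr20:57711473-57711722, minus strand: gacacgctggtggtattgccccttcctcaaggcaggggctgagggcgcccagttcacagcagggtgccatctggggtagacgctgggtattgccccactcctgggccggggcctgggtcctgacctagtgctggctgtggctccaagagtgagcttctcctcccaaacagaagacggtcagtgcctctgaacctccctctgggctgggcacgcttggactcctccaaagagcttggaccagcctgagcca
SPARC, chr5:151686916-151687165, minus strand: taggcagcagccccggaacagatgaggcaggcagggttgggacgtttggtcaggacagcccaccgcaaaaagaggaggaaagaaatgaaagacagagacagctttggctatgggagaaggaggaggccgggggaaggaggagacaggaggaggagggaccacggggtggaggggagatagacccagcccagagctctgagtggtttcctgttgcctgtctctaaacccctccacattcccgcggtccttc
A SMAD box begins 85 and 61 bases before the LTBP1 start used here and 243 and 53 bases before that of TGFB2. The windows of LTBP3, PMEPA1 and SPARC hold none of these letters. Over 27305 such windows, 37.8% hold at least 1. Promoters were matched for 29 of the 40 genes, and the box was in 2 of the 5 that passed and in 10 of the 24 that did not. An E-box, searched as CANNTG, which reads the same on both strands, was in 4 of those 5 and in 10 of those 24, against 62.2% of all windows. The form CAGGTG or CACCTG, bound by ZEB and SNAI factors and counted among the CANNTG matches, was in 1 of the 5 and 1 of the 24, against 17.5%. A match is a description of the letters and not a site of binding.

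Among the ligands, TGFB2 fell. It had log2 values of 10.06, 9.98 and 9.83 on the selamectin arrays, against 10.68, 10.60 and 10.48 on the untreated arrays. All 3 selamectin values lay below all 3 untreated values. The means were 9.96 ± 0.12 and 10.59 ± 0.10 (SD, n = 3 each), a change of -0.63 ± 0.10 (SE) or 1.55-fold lower (limma adjusted p = 0.0072). The call held without any 1 array, with adjusted p from 0.0067 to 0.046. TGFB1, the most studied isoform, had 9.50, 9.59 and 9.37 with selamectin, against 9.12, 9.25 and 9.39 untreated. Its groups overlapped, and its change of 0.24 (95% interval 0.01 to 0.46) did not pass (limma adjusted p = 0.24). The difference between the changes of the ligands was not tested.

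All 4 LTBPs lay lower with selamectin, and 2 of them passed. LTBP1, which holds the latent ligand in fibrillin-rich matrix, had 10.07, 10.06 and 9.91 on the selamectin arrays, against 10.84, 10.64 and 10.86 on the untreated arrays. No selamectin value reached the lowest untreated one. Its change of -0.77 ± 0.10 (SE), or 1.71-fold lower, had a limma adjusted p of 0.0041, and from 0.0024 to 0.027 with any 1 array left out.

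LTBP3 had 9.80, 9.85 and 9.93 with selamectin, against 10.16, 10.20 and 10.28 untreated. It was 1.27-fold lower, with an adjusted p of 0.048, just inside the threshold. That call stood without selamectin array 3 (0.031) and was lost without any 1 of the other 5 arrays (adjusted p from 0.074 to 0.20), with median-centred arrays (0.063) and with all clusters in the fit (0.10). LTBP4, which binds latent TGF-beta and acts in elastic fibre assembly, lay just outside. It had 9.27, 9.30 and 9.29 with selamectin, against 9.53, 9.70 and 9.70 untreated, a change of -0.36 (95% interval -0.56 to -0.16, limma adjusted p = 0.05047). LTBP3 and LTBP4 thus stand on opposite sides of the threshold with nearly equal changes. LTBP2, the family member that does not bind latent TGF-beta, had 7.54, 7.47 and 7.42, against 7.77, 7.58 and 7.85 untreated, and its change of -0.26 did not pass (0.16). In each of the 4 LTBPs every selamectin value was below every untreated value, as it was for 9.30% of all genes. Relative to the untreated means, the median of the 4 was -0.39, -0.35 and -0.33 on selamectin arrays 1, 2 and 3, so array 3 did not stand apart in this family. The family was set out on its own after its values were seen, and gets no test as a group.

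**Figure D2:**
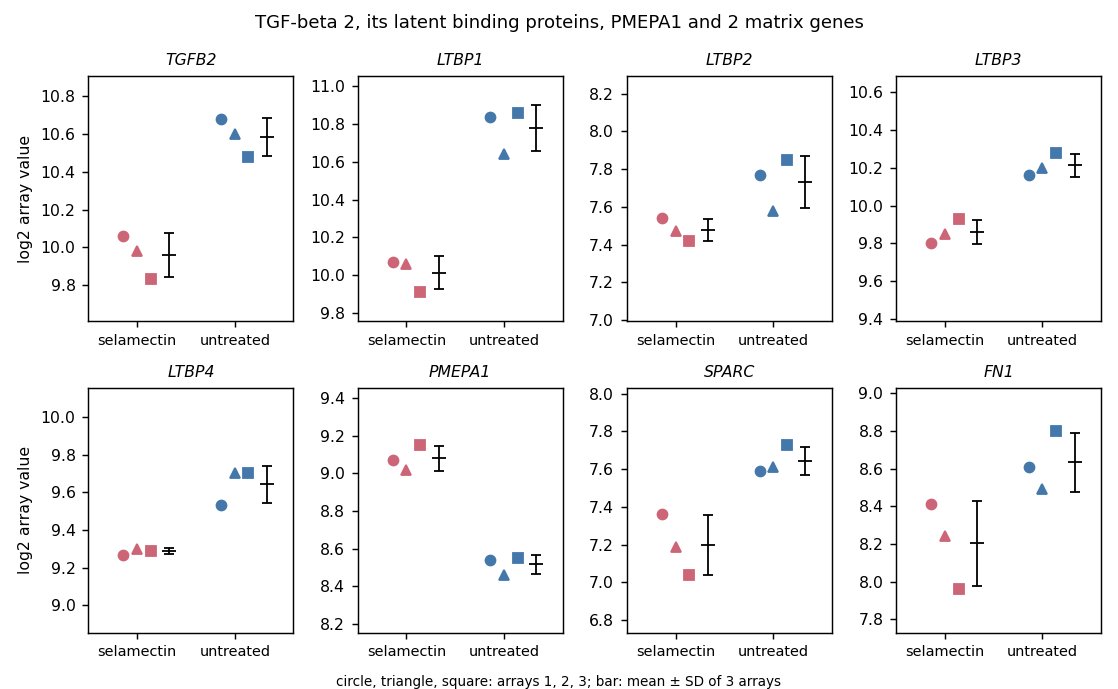
Log2 array values of 8 genes, selamectin on the left of each panel and untreated on the right; symbols stand for arrays 1, 2 and 3 and the bar for the mean ± SD of 3 arrays. Panels differ in the position of the vertical axis. Groups are apart in every panel, as for LTBP1 (9.91 to 10.07 with selamectin, against 10.64 to 10.86 untreated), though LTBP2, LTBP4 and FN1 did not pass the test. The panels do not stand for all genes: groups were apart for 15 of the 40 members and 25.3% of all genes. VIM, CDH11 and TNC, matrix or mesenchymal genes whose groups were apart and higher with selamectin, are not shown.

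The receptors did not pass. TGFBR1, the type I receptor kinase, had 9.75, 9.80 and 9.68 with selamectin, against 9.66, 9.22 and 9.61 untreated. Every selamectin value was above every untreated one, as for 16.0% of all genes, and untreated array 2 was far below the other untreated arrays. The change of 0.25 had a limma adjusted p of 0.28, and without untreated array 2 it was 0.11 (0.49). TGFBR2, the type II receptor that binds ligand, changed by 0.04 with a 95% interval from -0.15 to 0.22.

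SMAD2 gave different answers on its 2 transcript clusters. The brighter cluster, which stands for the gene, had 11.85, 11.66 and 11.47 with selamectin, against 11.98, 11.77 and 12.00 untreated. The groups overlapped there, and the change of -0.26 did not pass (limma adjusted p = 0.21). The dimmer cluster had 9.90, 9.81 and 9.64 with selamectin, against 11.00, 10.62 and 10.99 untreated. There the groups lay far apart. With that cluster in place of the brighter one, SMAD2 was 2.12-fold lower, a change of -1.08 ± 0.12 (SE, 95% interval -1.35 to -0.82, adjusted p = 0.0026), and the adjusted p stayed between 0.0012 and 0.024 with any 1 array left out. In the fit of all 33297 clusters, where 0.748% passed, the dimmer cluster passed (0.041) and the brighter one did not (0.35). This cluster was set out after its value was seen. Both clusters are annotated to the same 3 RefSeq transcripts of SMAD2, and which part of the gene each covers was not analysed here. With SMAD2 and ZEB2 each on its dimmer cluster, 6 of the 40 genes passed, 1 higher and 5 lower.

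**Figure D3:**
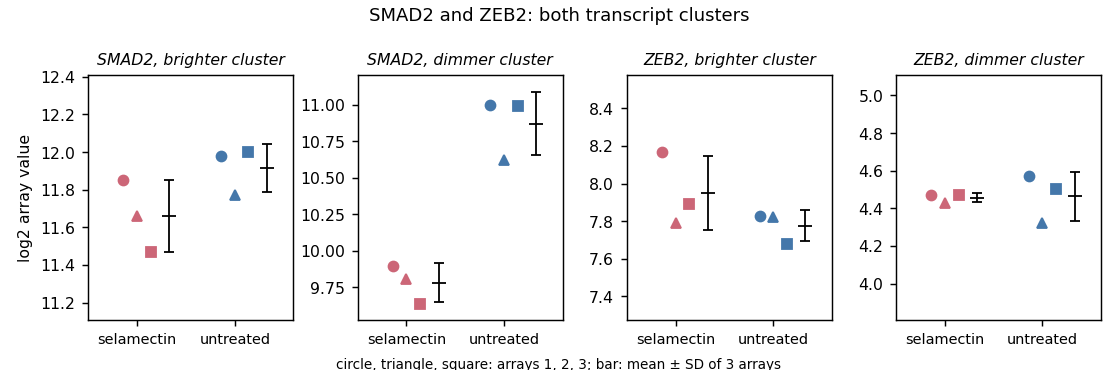
Log2 array values of both transcript clusters of SMAD2 and of ZEB2, selamectin on the left and untreated on the right of each panel, with arrays 1, 2 and 3 as symbols and the mean ± SD of 3 arrays as a bar. The dimmer SMAD2 cluster lies between 9.64 and 9.90 with selamectin, against 10.62 to 11.00 untreated, while the other clusters overlap between groups.

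Among the other signal carriers, SMAD3 had 10.50, 10.39 and 10.31 with selamectin, against 10.59, 10.63 and 10.66 untreated. Every selamectin value was below every untreated one, but the change of -0.23 did not pass (limma adjusted p = 0.17). SMAD4, the shared partner, changed by -0.09 (95% interval -0.24 to 0.07), on a dim cluster with a mean of 5.25 with selamectin and 5.34 untreated. The inhibitors SMAD7, SKI and SKIL changed by -0.05, -0.14 and -0.09, and their groups overlapped. Of the 14 pathway genes, 3 lay above 0 and 11 below, where 63.0% of all genes lay above 0. At an unadjusted p under 0.05 there were 1 higher (TGFB1) and 7 lower (TGFB2, the 4 LTBPs, SMAD2 and SMAD3), against 11.7% of all genes higher and 8.21% lower.

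PMEPA1 rose. It encodes a membrane protein that TGF-beta induces and that binds SMAD2 and SMAD3 away from the receptor. Its values were 9.07, 9.02 and 9.15 with selamectin, against 8.54, 8.46 and 8.55 untreated. Every selamectin array was above every untreated one, and the arrays of each group lay close together. The change was 0.56 ± 0.09 (SE), or 1.47-fold higher (limma adjusted p = 0.0088, and 0.012 to 0.042 with any 1 array left out). The other 3 response genes did not pass in limma. IL11, a cytokine that TGF-beta induces in bone-metastatic breast cancer cells, changed by 0.05 (95% interval -0.17 to 0.26). TGFB1I1, the focal adhesion adaptor Hic-5, changed by 0.06 (-0.15 to 0.27). BHLHE40, a helix-loop-helix repressor induced by TGF-beta and by hypoxia, had 12.22, 11.90 and 11.62 with selamectin, against 11.81, 11.78 and 11.85 untreated, so its treated arrays lay on both sides of the untreated ones. Its change of 0.10 was 0.24 without selamectin array 3 and did not pass either way.

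None of the 8 transition factors passed in limma. TWIST1, a helix-loop-helix factor of mesoderm, had 9.55, 9.43 and 9.09 with selamectin, against 9.69, 9.57 and 9.58 untreated. Its groups did not overlap, but the margin was small, and the change of -0.26, or -0.13 without selamectin array 3, did not pass (limma adjusted p = 0.26 and 0.50). FOXC2, a forkhead factor, had 9.61, 9.65 and 9.59, against 9.32, 9.43 and 9.53 untreated, a change of 0.19 (0.27). Groups that do not overlap, 2 of these 8, were seen for 25.3% of all genes.

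SNAI2, the zinc finger repressor Slug, had 11.46, 11.55 and 10.78 with selamectin, against 10.68, 10.96 and 11.09 untreated. Selamectin arrays 1 and 2 were above all untreated arrays, and array 3 lay within their range. The change was 0.36 (95% interval -0.04 to 0.75, limma adjusted p = 0.30). Without selamectin array 3 it was 0.60 and passed (0.011), in a fit where 6.24% of all genes passed. SNAI1, the related repressor Snail, had 9.21, 9.28 and 8.82, against 8.99, 9.05 and 9.00 untreated, with the same array lowest. Its change was 0.09, and 0.23 without that array (limma adjusted p = 0.72 and 0.19).

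ZEB1, a zinc finger repressor of CDH1, had 9.58, 9.41 and 9.41 with selamectin, against 9.55, 9.54 and 9.55 untreated, a change of -0.08 with a 95% interval from -0.28 to 0.12. ZEB2 changed by 0.17 (-0.07 to 0.41), with array 1 at 8.17 above the rest, and its dimmer cluster, at a mean of 4.46 in both groups, by 0.00. TWIST2 changed by -0.02 (-0.26 to 0.21), and PRRX1, a homeobox factor, by 0.02 (-0.25 to 0.30). The intervals of these 4 factors reach changes of up to 0.41 in size, so a miss of the threshold does not show equal levels.

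**Figure D4:**
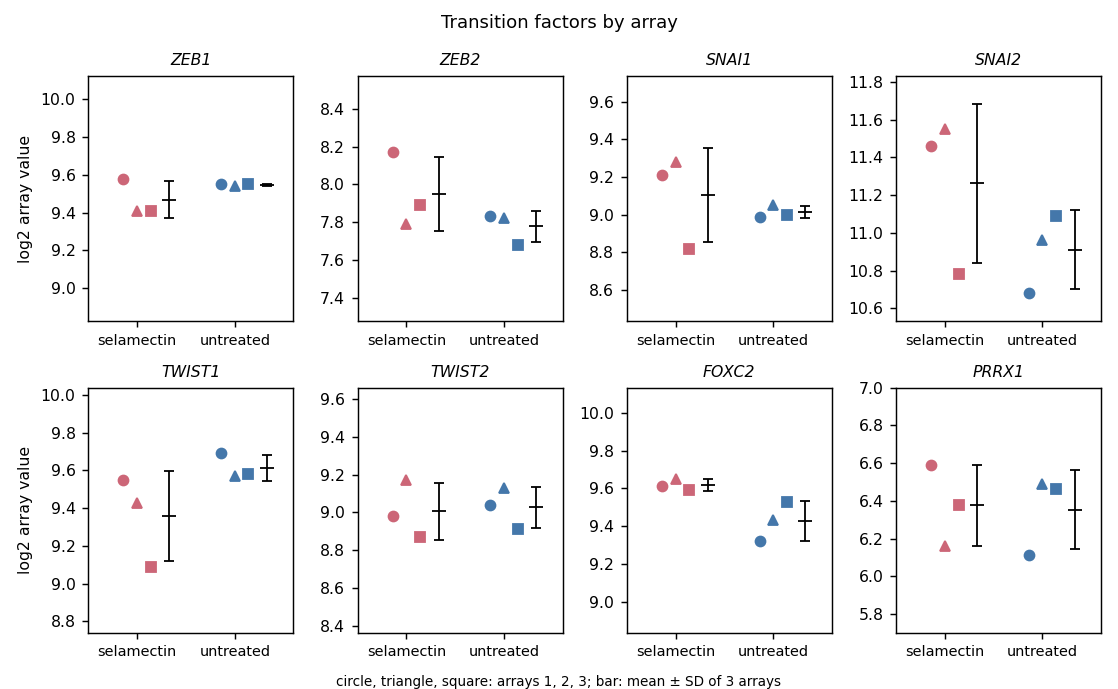
Log2 array values of the 8 transition factors, selamectin on the left and untreated on the right of each panel, with arrays 1, 2 and 3 as symbols and the mean ± SD of 3 arrays as a bar. SNAI2 on selamectin array 3 (10.78) lies apart from selamectin arrays 1 and 2 (11.46 and 11.55), and the groups are apart only for TWIST1 and FOXC2.

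Among the mesenchymal and matrix genes 1 passed. SPARC, a collagen-binding matrix protein, fell. It had 7.36, 7.19 and 7.04 with selamectin, against 7.59, 7.61 and 7.73 untreated, with no overlap. It was 1.36-fold lower (change -0.45 ± 0.10 SE, limma adjusted p = 0.033). The call was kept without selamectin array 1 (0.028) and lost without selamectin array 2 (0.11), selamectin array 3 (0.066), untreated array 1 (0.084), untreated array 2 (0.053) or untreated array 3 (0.13), and with all clusters in the fit (0.11). FN1, which encodes fibronectin, had 8.41, 8.24 and 7.96, against 8.61, 8.49 and 8.80 untreated. Its groups did not overlap either, but its spread was wider and the change of -0.43 did not pass (0.083).

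VIM, the intermediate filament vimentin that is the standard mesenchymal marker, had 12.94, 12.82 and 12.93 with selamectin, against 12.63, 12.73 and 12.65 untreated. All selamectin values were above all untreated values, by a change of 0.23 (95% interval 0.07 to 0.38) that did not pass (limma adjusted p = 0.091). CDH2, N-cadherin, had overlapping groups and a change of -0.07 (-0.30 to 0.17). CDH11, a cadherin of mesenchymal cells, changed by 0.09 (-0.05 to 0.23) on a dim cluster.

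LOX, the lysyl oxidase that crosslinks collagen, split the treated arrays. It had 11.19, 10.87 and 9.39 with selamectin, against 10.18, 10.08 and 10.06 untreated. Arrays 1 and 2 were above and array 3 below every untreated array, and the selamectin SD was 0.96 against 0.06 untreated. The change of 0.38 did not pass (limma adjusted p = 0.58), and without selamectin array 3 it was 0.92 and passed (0.0011). Its relative LOXL2 had 10.71, 10.53 and 10.10, against 10.58, 10.58 and 10.45 untreated, with array 3 again lowest. The LOXL2 change was -0.09 with all arrays and 0.09 without that array, and passed in neither fit. LOX and BHLHE40 are known hypoxia targets. The median of 14 other hypoxia genes, relative to the untreated mean, was 0.46, 0.37 and 0.04 on selamectin arrays 1, 2 and 3 and between -0.04 and 0.02 on the untreated arrays. Over all genes it was 0.05, 0.07 and 0.01 on the same selamectin arrays. The part of hypoxia genes in the values of LOX, LOXL2 and BHLHE40 was not tested.

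The remaining matrix and stromal genes were TNC, DCN, THY1, POSTN, LUM, FAP and TGFBI, and none of them passed in limma. TNC, the matrix glycoprotein tenascin C, changed by 0.19, with 6.18, 6.20 and 6.16 with selamectin, against 5.90, 6.15 and 5.93 untreated. DCN, decorin, a small proteoglycan that binds TGF-beta, changed by 0.17. Both had an unadjusted p under 0.05. THY1, POSTN, LUM and FAP changed by between -0.12 and 0.13, and TGFBI, a secreted protein named for its induction by TGF-beta, by 0.05 (95% interval -0.17 to 0.27). Several of these are fibroblast genes. Of 12 further fibroblast markers, 1 passed (8.33%, against 4.69% of all genes). PDGFRB rose by 0.34 (limma adjusted p = 0.040), a call lost whichever array was left out (0.056 to 0.13). Relative to the untreated mean, the median of these 12 markers was 0.10, 0.18 and 0.02 on selamectin arrays 1, 2 and 3 and between -0.04 and 0.04 on the untreated arrays. Over all genes it was 0.05, 0.07 and 0.01 on the same selamectin arrays. Of the 12 markers, 6 had a mean above the 25th percentile of all genes. The part of these markers in the values of the matrix genes was not tested.

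**Figure D5:**
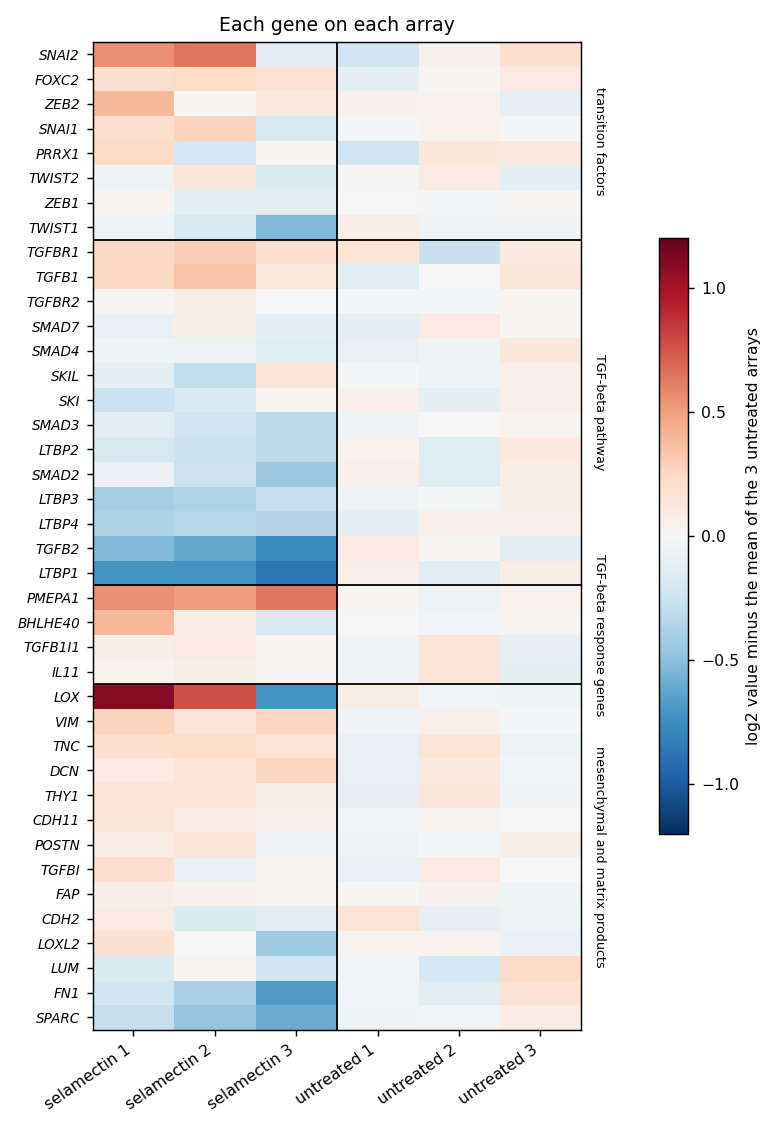
Log2 value of each of 40 genes minus its mean over the 3 untreated arrays, selamectin arrays on the left and untreated arrays on the right, in 4 role groups down the page; red is above and blue below the untreated mean. LTBP1, TGFB2, LTBP3 and LTBP4 are blue and PMEPA1 red on all 3 selamectin arrays, while LOX changes colour on selamectin array 3.

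By array, the median of the transition factors relative to the untreated mean was 0.19, 0.08 and -0.13 on selamectin arrays 1, 2 and 3. That of the pathway genes was -0.12, -0.25 and -0.21. Matrix and mesenchymal genes stood at 0.12, 0.07 and 0.00, and all 18417 genes at 0.05, 0.07 and 0.01. The pathway genes were thus the group whose median was below 0 on each selamectin array. The count of 5 genes past the threshold became 3 without selamectin array 2, untreated array 1, untreated array 2 or untreated array 3. It was 4 without selamectin array 1 and 6 without selamectin array 3. Over all 18417 genes the count of 864 became 597, 234 and 1149 without selamectin arrays 1, 2 and 3 in turn. Without untreated arrays 1, 2 and 3 in turn it became 176, 664 and 254.

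Among 71 other genes of the pathway, 2 rose and 6 fell (11.3% in either direction, against 4.69% of all genes). Of 24 other ligands, receptors and activators, 1 fell, TGFBR3, the co-receptor betaglycan that presents TGF-beta 2 to the signalling receptors. It had 10.28, 10.20 and 9.82 with selamectin, against 10.58, 10.57 and 10.70 untreated, a change of -0.52 (limma adjusted p = 0.036). Of 20 signal regulators, 1 rose, STRAP, which acts with SMAD7 at the receptor, by 0.32 (0.047). These shares of 4.17% and 5.0% were near the 4.69% of all genes. Of 27 genes listed here as responding to TGF-beta, 1 rose and 5 fell (22.2%). Whether TGF-beta raises or lowers each of them in this line was not tested, and CLDN4 is also among the epithelial genes below. THBS1, thrombospondin 1, an activator of latent TGF-beta, had 9.98, 9.85 and 10.37, against 10.71, 10.70 and 10.80 untreated, a change of -0.67 (0.015). TGM2, the transglutaminase that crosslinks matrix and latent complexes, changed by -0.49 (0.039) and NUAK1, a kinase related to AMPK, by -0.42 (0.037). The remaining calls were NEDD9 (-1.12), ID2 (-0.71) and ID3 (0.72). Of these 8, NEDD9 and ID2 passed whichever array was left out. TGFBR3, THBS1, TGM2, NUAK1, STRAP and ID3 each lost the call without at least 1 array, with adjusted p up to 0.14, 0.072, 0.15, 0.15, 0.18 and 0.070. The count of 8 was 6 without selamectin array 1, 2 without selamectin array 2, 10 without selamectin array 3, 2 without untreated array 1, 5 without untreated array 2 and 3 without untreated array 3. The split of 2 higher and 6 lower became 5 and 5 without selamectin array 3 and 7 and 8 with array weights. Leaving out selamectin arrays 1, 2 and 3 in turn took the count over all genes from 864 to 597, 234 and 1149. Leaving out untreated arrays 1, 2 and 3 in turn took it to 176, 664 and 254. The all-gene split of 444 higher and 420 lower became 685 and 464 without selamectin array 3 and 1822 and 1464 with array weights.

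Epithelial genes, listed here as counterparts of the mesenchymal ones, were also measured. Whether the transition factors repress each of them in this line was not tested. Of 20, 2 rose and 0 fell in limma (10.0%, against 4.69% of all genes), and 8 had an unadjusted p under 0.05 (3 higher and 5 lower), against 19.9% of all genes. The split of 2 higher and 0 lower became 4 and 3 with array weights, 2 and 1 with robust eBayes and 1 and 1 with either filter on dim genes. Over all genes it was 1822 and 1464 with array weights and 529 and 471 with robust eBayes. With the filters at the 25th and 50th percentiles it was 532 and 489, and 530 and 408. EHF, an epithelial ETS factor, had 6.52, 6.40 and 6.28 with selamectin, against 6.07, 5.91 and 5.81 untreated, a change of 0.47 (adjusted p = 0.016). ST14, the protease matriptase, changed by 0.51 (0.033). CDH1 itself, E-cadherin, had 6.04, 5.97 and 6.03, against 6.28, 6.20 and 6.34 untreated, so it lay lower on every selamectin array without passing (0.064). EHF and CDH1 both had means below the 25th percentile of all genes, so either filter left them out. How far they stood above background is not known. SPINT1, a protease inhibitor of epithelial cells that was picked out after its value was seen, had 9.66, 9.48 and 9.38, against 9.79, 10.24 and 9.93 untreated, a change of -0.48 that did not pass (0.054). EHF lost its call without selamectin array 2 or untreated array 3 (adjusted p up to 0.079). ST14 lost it without selamectin array 2 or any 1 untreated array (up to 0.14). The epithelial count of 2 was 0 without selamectin array 2 or untreated array 3 and 1 without untreated array 1 or untreated array 2. In those fits, in the same order, 234, 254, 176 and 664 of all genes passed.

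Of 11 leukocyte markers 0 passed in limma and 0 had an unadjusted p under 0.05, with LYZ at 0.11 and MS4A1 at -0.11. Of 8 endothelial markers 0 passed and 2 had an unadjusted p under 0.05 (against 19.9% of all genes), CDH5, a vascular cadherin (-0.59, adjusted p = 0.067), and VWF (0.18). Without selamectin array 3, CDH5 passed (-0.74, adjusted p = 0.016).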

How the data were processed

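The deposited table holds 1 value per transcript cluster for 33297 clusters on 6 arrays. Per the submitters' processing notes, the tools were RMA, Transcriptome Analysis Console and Affymetrix Expression Console, with no setting given. The values were taken as the log2 values that RMA gives, as the authors deposited them with no stated log base. RMA compresses changes of dim genes and removes a shift common to all genes of a group. The genome build is not known here and no scan date or slide was used, so batches were not tested, and the number of arrays limits the precision.

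Of the clusters, 19460 had 1 symbol in the platform annotation, giving 18417 genes after the brighter cluster was taken for each. All were fitted with limma 3.58.1 in R 4.3.3 (lmFit, eBayes with an intensity trend), two-sided, as selamectin minus untreated, without a block or a filter, with Benjamini-Hochberg adjustment. The design text calls the 3 cultures per group independent. If they are not, p-values measure only the spread between these arrays.

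Genes and lists were chosen with earlier results of these data known. All 40 measured members are named. From other lists, every gene past the threshold is named. For the leukocyte and endothelial lists, where none passed, the 2 with the smallest p are named. CDH1 and SPINT1 are named as well, SPINT1 after its value was seen. The hypoxia list and the dimmer SMAD2 and ZEB2 clusters were taken up after their values were seen. The fit was tested on simulated data. Promoter sequences are RefSeq's (GRCh38.p14).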

Additional observations from a re-analysis of the deposited data

How the results depend on the processing

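LTBP1, TGFB2 and PMEPA1 passed in all settings tried, including those that left out any 1 array, and no member that passed in any setting changed sign between settings. Of 35 members that did not pass, 9 passed in at least 1 setting (SNAI2 and LOX only without selamectin array 3), and 9 others near 0 changed sign. The number of members past the threshold was 5. It was 3 with all clusters in the fit, 12 with array weights, 8 at an adjusted p under 0.1, 3 at 0.01 and 3 to 6 with 1 array left out. Array weights gave untreated array 3 a weight of 5.11, against 0.45 to 1.22 for the other arrays. For all genes the count of 864 became 167, 3286, 1602, 173 and 176 to 1149 in the same settings. For the other TGF-beta genes the count of 8 became 2 with all clusters, 15 with array weights, 2 at 0.01 and 2 to 10 with 1 array left out. For epithelial genes the count of 2 became 0, 7, 4, 0 and 0 to 2. The replicate block gave 3 members (LTBP3 had an adjusted p of 0.063 and SPARC 0.056), 4 other TGF-beta genes, 1 epithelial gene and 650 of all genes. Deviations of same-numbered arrays from their group means had r of -0.011, 0.242 and -0.139 across genes. Not every array correlated best with its own number. Deviations from a mean of 3 arrays sum to 0, so these values cannot decide whether the numbers pair the cultures. The causes of these moves were not tested. How far dim clusters such as SMAD4 stood above background is not known.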
